A study of Mus musculus with 4 samples.

Results

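The regions described here are 13 stretches of probes on chromosomes 2, 5, 6, 7 and 8 of a mouse tiling array that measured nuclear RNA. They are all the probes of the array on chromosomes 2 and 5 to 9 that lie outside 5 intervals left out by the rule, split into tiles wherever neighbouring probes were more than 50 kb apart. The rule used positions alone and no measured value. It gave 9545 of the 48316 probes of the array. Of the 13 regions, 10 are whole tiles out of the 39 tiles of the array, and 3 are edges that remain of larger tiles. Chromosome 9 carried 0 probes.

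Nuclear RNA was compared between mouse embryonic stem cells (ESC) of the 46c line, which carries a fluorescent reporter of neural fate, and neural progenitor cells (NPC) derived from that line with the N2B27 protocol, with 2 arrays per group. Both groups thus rest on 1 cell line, and the labels name no transgene, drug or mutation that sets the groups apart. The labels do not state whether the arrays within a group stem from separate cultures, and the p-values therefore reflect only the spread among these samples, part of which may be technical. The labels name chromatin prepared from nuclei without RNase as the source of the RNA, of which 250 ng per sample was amplified and labelled.

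ESC are pluripotent cells that can form every tissue of the embryo, and NPC are dividing cells that form neurons and glia. RNA that stays with nuclei and chromatin is rich in unfinished transcripts, introns and non-coding RNA, so a tiling array of it reads transcription along a region and not only its mature messages. The probe names give no strand, so the signal is not assigned to either strand of RNA here. The scanner files do not pair the probes with genes, and an mm9 annotation, the build of the probes, was not used here, so the regions are called by letters and positions, and no exon, intron or untranslated region is assigned. For the same reason the cell type markers of ESC and NPC could not be read in these regions.

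In order along the genome (mm9), tile A covers chromosome 2: 35921957-35966616 with 567 probes. Edge B (74349931-74399330, 414 probes) and edge C (74700302-74723455, 217 probes) flank one of the intervals left out on chromosome 2. Tile D covers 105321083-105554931 with 2240 probes, tile E 146996970-147025706 with 338 probes and tile F 147845839-147880996 with 416 probes, all on chromosome 2. Tile G covers chromosome 5: 102064277-102100554 with 391 probes and tile H chromosome 5: 143659451-143709345 with 348 probes. Edge I covers chromosome 6: 122576263-122600015 with 145 probes and tile J chromosome 6: 125094615-125144984 with 529 probes. Tile K covers chromosome 7: 122944126-123188597 with 2554 probes and tile L chromosome 7: 149758545-149858777 with 1318 probes. Tile M is the smallest, with 68 probes at chromosome 8: 87423681-87429288. The probes are 60 bases long and in each region started 60 bases apart at the median, end to end.

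Values are log2 intensity minus the 75th percentile of each array, taken over the 15356 probes that passed the background limit on each of the 4 arrays, so that a value of 0 is a bright probe and most values are negative. A difference is always NPC minus ESC on this log2 scale. Well above background is the mark that the scanner program set for each spot. It does not depend on the scaling between arrays. The mark was set for 43.9% ± 1.54 of the probes of the 13 regions in ESC and 50.1% ± 2.13 in NPC (SD, n = 2), and for 1.93% of the negative control spots (range over arrays 1.36% to 2.42%). Over all probes of the array it was set for 42.5% and 44.6% on the ESC arrays. On the NPC arrays it was set for 54.1% and 54.3%, a wider gap between the groups than in the 13 regions. All probes include those of the chromosome 12 tile with the most probes, called the chromosome 12 tile below. No probe of the regions was saturated. The zero point of the differences rests on the scaling. The median change over all 964 windows of 5 kb on the array was -0.34, and it lay between -0.73 and -0.05 over 7 ways of scaling the arrays, so the change of each whole region is also given relative to that median window. RNA from fewer cells of a kind and less RNA per cell cannot be told apart in these bulk samples.

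Over whole regions, 7 of 13 passed the test: tile F was higher in NPC, and tiles A, E, H and M and edges B and I were lower. The background was 9.52% of the 42 regions of the array called higher and 52.4% called lower, so 1 and 6 calls of 13 lie near the shares of the array as a whole. Tiles A, E and M were called lower under all 7 scalings, and no region was called higher under all 7. Without ESC 1, 0 of the 13 regions were called higher and 0 lower (limma; 1 and 3 at an unadjusted p under 0.05), and without ESC 2 the counts were 0 and 2 (0 and 4 unadjusted).

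**Figure D1:**
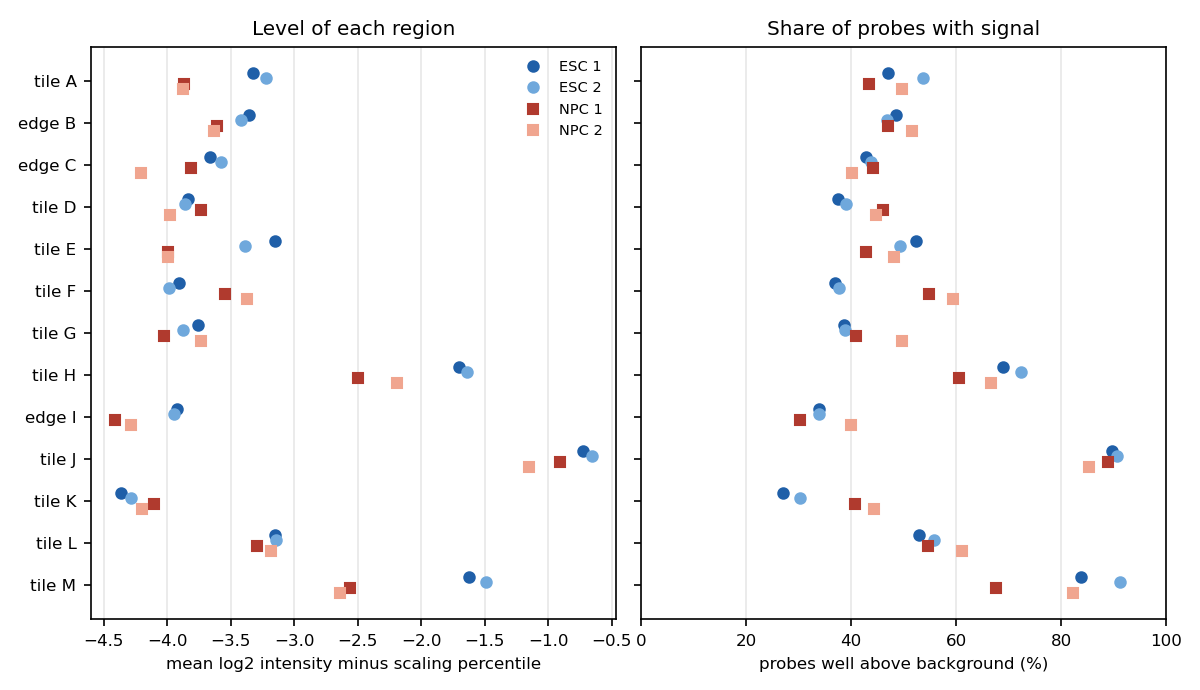
Mean level of each of the 13 regions on each array (log2 intensity minus the scaling percentile, left) and the percentage of its probes well above background (right), with 1 point per array. Tiles J, H and M have higher levels than the other 10 regions on all 4 arrays, and tile K shows the lowest ESC levels, at -4.36 and -4.29.

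In windows of 5 kb, 15 of the 194 windows in the regions were higher in NPC, 39 were lower and the other 140 did not pass the test (limma, adjusted by Benjamini-Hochberg over all windows). The background was 22.0% of all windows called higher and 29.5% called lower, against 7.73% and 20.1% in the regions. The median change was -0.19 in the regions and -0.37 in the windows elsewhere. Both NPC arrays lay above both ESC arrays in 41 windows (background 27.8%) and below both in 93 windows (background 57.8%). Under all 7 scalings, 6 windows (3.09%) were called higher and 6 lower, against a background of 19.2% and 6.43% of all windows. These backgrounds include the chromosome 12 tile, and window shares without it were not computed. In the count of 1 kb bins given below, leaving that tile out moved the background with signal in NPC alone from 17.9% to 5.3%. The regions themselves had 7.29% of such bins. How far the lower share of called window rises in the regions rests on that tile was not tested. Without ESC 1, 0 windows were called in either direction (10 higher and 16 lower at an unadjusted p under 0.05), and without ESC 2 likewise 0 (10 and 17).

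**Figure D2:**
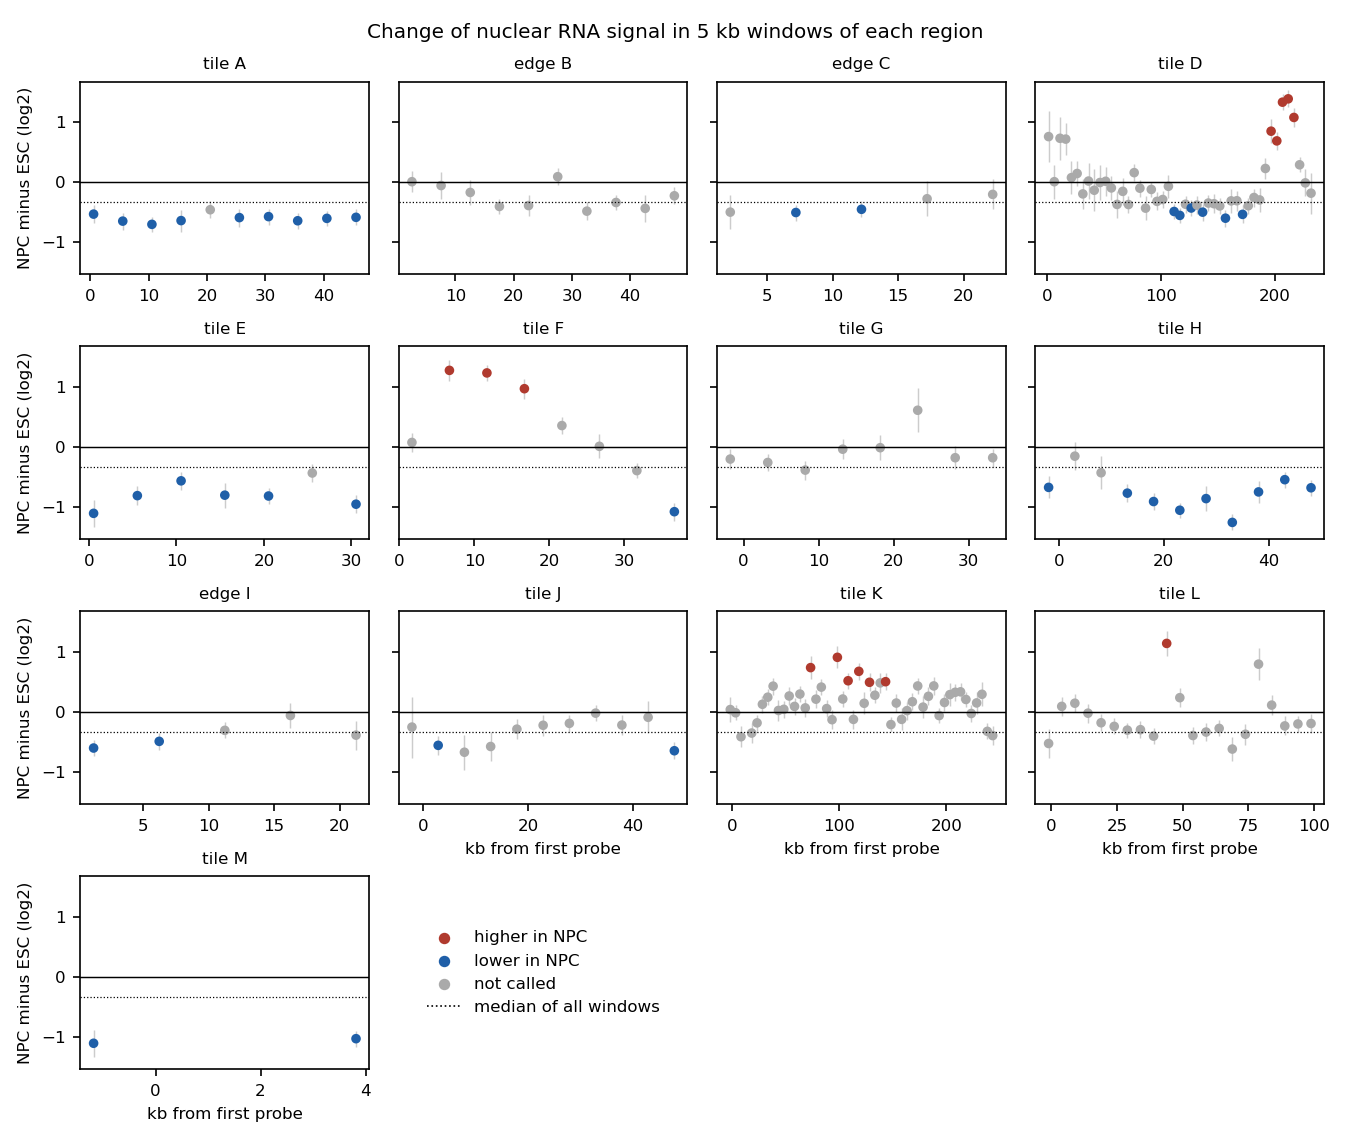
NPC minus ESC (log2) of each 5 kb window against its distance in kb from the first probe of the region, 1 panel per region. Colours mark the windows called higher, lower or not called, and the dotted line is the median of all windows at -0.34. The called rises of tile D stand together at its far end and those of tile F near its start. Tiles A, E, H, J and M and edges C and I lie below 0 in every window.

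Single probes gave 236 higher and 99 lower calls among 9466 tested. The background over the array, with the chromosome 12 tile included, was 10.8% higher and 1.58% lower. Tile K held 90 of the higher probes among 2539 tested, tile D 78 among 2227 and tile F 47 among 415. As shares, those of tiles K and D lay below the background of higher probes, and that of tile F lay near it. Tile H held the most lower probes, 22 among 339, a share above the background of lower probes.

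Tile D held its called rises in its last part. Over the 25 kb at chromosome 2: 105515001-105540000 (292 probes) the level was -2.63 in ESC 1 and -2.74 in ESC 2, and -1.67 in NPC 1 and -1.55 in NPC 2. Both NPC arrays were above both ESC arrays, by 1.07 on average, or 2.10-fold. All 5 windows of the stretch were called higher, with changes from 0.68 to 1.38. Probes well above background made up 60.3% and 62.0% of the stretch in ESC and 84.2% and 84.6% in NPC, so the stretch carried signal in both groups and over more of its length in NPC.

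The window starting at 105530001 had the largest rise of all windows in the 13 regions. It stood at -2.95 and -3.05 in ESC and -1.70 and -1.53 in NPC (change 1.38, SE 0.14, limma adjusted p = 0.00591), and its change lay 1.72 above that of the median window. The window before it, at 105525001, changed by 1.33 (SE 0.14) and the one after it, at 105535001, by 1.07 (SE 0.16). These 3 windows were called higher under all 7 scalings. The window at 105515001, with the highest level of the tile, stood at -1.96 and -2.39 in ESC and -1.41 and -1.25 in NPC, and its rise of 0.85 (SE 0.20, adjusted p = 0.0279) was not called under every scaling.

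Outside this stretch, no window of tile D was called higher. Measured inside each array, which a shift of the whole array cannot move, the stretch was brighter than the rest of the tile by 1.39 in ESC 1, 1.29 in ESC 2, 2.37 in NPC 1 and 2.79 in NPC 2. These differences do not overlap between the groups. The stretch was chosen after its values were seen, so they are a description with no test. Over the 135 kb before it, at 105380001-105515000, the level stood at -4.08 and -4.14 in ESC and -4.41 and -4.46 in NPC. All 6 windows of the tile called lower lay among the 27 windows of this part, against a background of 29.5% of all windows. The change of this part, -0.32, lay near that of the median window (-0.34). Its shares of probes well above background overlapped, at 32.5% and 33.0% in ESC and 31.8% and 35.6% in NPC. The whole tile, in which these parts are averaged, stood at -3.84, -3.86, -3.73 and -3.98, with a change of -0.0052 (SE 0.11, adjusted p = 0.964), 0.33 above that of the median window. It was called lower under 1 of the 7 scalings, when all probes set the percentile (-0.40).

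The NPC arrays disagreed over the first 60 kb of tile D. There the level was -3.62 in NPC 1 and -4.40 in NPC 2, with ESC at -4.15 and -4.13. By this level NPC 1 was high and NPC 2 low, with both ESC arrays between them. The share of probes well above background was 51.0% in NPC 1 and 39.3% in NPC 2, both above the ESC arrays at 31.3% and 33.1%. In the windows at 105320001, 105330001 and 105335001 both NPC arrays lay above both ESC arrays, with changes of 0.76, 0.73 and 0.71 that did not pass the test (adjusted p = 0.176, 0.136 and 0.0752). A single 1 kb bin at 105394001, of 11 probes, was bright on every array, at 2.22, 2.83, 1.97 and 2.53 in the order ESC 1, ESC 2, NPC 1, NPC 2. Its groups overlap.

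**Figure D3:**
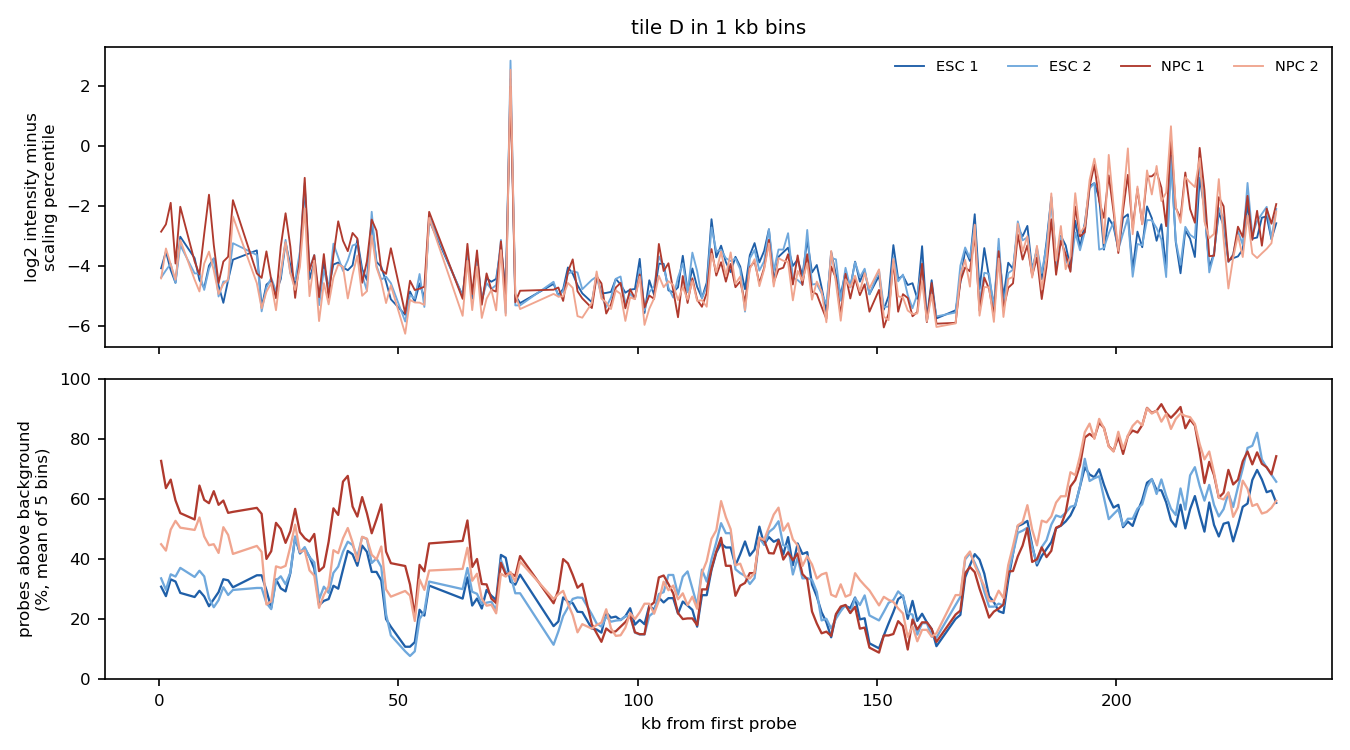
Tile D in bins of 1 kb, as the mean log2 intensity minus the scaling percentile (upper panel) and as the percentage of probes well above background, smoothed over 5 bins (lower panel), against the distance in kb from the first probe, with 1 line per array. The NPC lines leave the ESC lines over the 25 kb stretch near the far end, and the NPC 1 line stands apart over the first 60 kb.

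Tile F was the only whole region called higher. Its level stood at -3.91 and -3.99 in ESC and -3.55 and -3.37 in NPC (change 0.49, SE 0.091, adjusted p = 0.0139), 0.82 above the change of the median window. Its probes were well above background at 37.0% and 37.7% in ESC and at 54.8% and 59.4% in NPC. Under 4 of the other scalings the tile was not called: its change was 0.28 with the median over windows, 0.31 with the authors' values, 0.098 when all probes set the percentile and 0.063 with normexp.

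The rise of tile F lay in 15 kb, at chromosome 2: 147850001-147865000 (184 probes). There the level stood at -4.17 and -4.21 in ESC and -3.12 and -2.96 in NPC, which differ by 1.15 or 2.22-fold. From 30.4% and 32.1% of probes well above background in ESC, the stretch went to 65.8% and 68.5% in NPC. It was dimmer than the rest of the tile in ESC, by -0.46 and -0.40 inside each array, and brighter than the rest in NPC, by 0.78 and 0.73. The stretch was chosen from the called windows and its probes differ from those of the rest, so these differences too are a description with no test.

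The window at 147850001 changed by 1.27 (SE 0.18, adjusted p = 0.00859) and the window at 147855001 by 1.23 (SE 0.14, adjusted p = 0.00617), both under all 7 scalings. The third window, at 147860001, changed by 0.97 (SE 0.17). The brightest window of the tile, at 147870001, was not part of the rise. It stood at -2.99 and -3.06 in ESC and -3.25 and -2.78 in NPC, and the groups overlap. At the end of the tile, the window at 147880001 (11 probes) was called lower, with levels of -4.58 and -4.82 in ESC and -5.76 and -5.80 in NPC, but no probe of it was well above background in NPC and only 13.6% were in ESC, so no fold is given.

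Tile L held 1 window called higher and 0 called lower among 21 (limma; 2 and 3 at an unadjusted p under 0.05). The window at chromosome 7: 149800001-149805000 (67 probes) stood at -3.04 and -2.64 in ESC and -1.85 and -1.55 in NPC (change 1.14, SE 0.21, adjusted p = 0.0155), or 2.20-fold, and it was called higher under all 7 scalings. Probes well above background went from 55.2% and 62.7% to 80.6% and 85.1%. Inside each array the window, chosen from the calls, exceeded the rest of the tile by 0.12 and 0.54 in ESC and by 1.52 and 1.71 in NPC.

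The highest level of tile L lay elsewhere, in the window at 149835001. It stood at -1.44 and -1.12 in ESC and -0.80 and -0.17 in NPC, and its change of 0.79 (SE 0.27, adjusted p = 0.0594) did not pass the test. Its 1 kb bin at 149837001 (14 probes, all well above background on every array) had levels of -0.44 and -0.043 in ESC and 0.79 and 2.25 in NPC. Both NPC arrays were above both ESC arrays there, and they differed from each other more than the ESC arrays did. The tile as a whole stood at -3.15 and -3.15 in ESC and -3.29 and -3.18 in NPC (change -0.087, SE 0.071, adjusted p = 0.333), 0.25 above the change of the median window. It was called lower under 1 of the 7 scalings, when all probes set the percentile (-0.48).

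Tile K, the longest region at 244 kb, was the dimmest in ESC. Its called windows were mostly dim, and none lay next to another. The level stood at -4.36 and -4.29 in ESC and -4.10 and -4.20 in NPC (change 0.17, SE 0.073, adjusted p = 0.104). This did not pass the test and lay 0.51 above the change of the median window. The groups did not overlap. Probes well above background made up 26.9% and 30.3% of the tile in ESC and 40.7% and 44.3% in NPC, a share that was described and not tested. The change of the tile was called higher when the chromosome 12 tile did not count for the percentile (0.39) and when control spots named SRN set the scale (0.46), and it was -0.22 when all probes set the percentile.

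Of the 49 windows of tile K, 6 were called higher and 0 lower (limma; 11 and 0 at an unadjusted p under 0.05), and 37 had a change above 0. The 6 lie between 123015001 and 123090000. The largest, at 123040001, stood at -4.61 and -4.22 in ESC and -3.57 and -3.46 in NPC (change 0.91, SE 0.18, adjusted p = 0.0197). The window at 123015001 changed by 0.74 (SE 0.19, adjusted p = 0.0364). None of the 6 was called under all 7 scalings. The brightest window, at 123175001 near the end of the tile, stood at -2.59 and -2.22 in ESC and -1.97 and -2.26 in NPC, and its groups overlap.

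Signal can also be counted by place, when each 1 kb bin with at least 3 probes is taken to carry signal where at least 50% of its probes were well above background on both arrays of a group. Of 878 such bins in the 13 regions, 257 carried signal in both groups, 64 in NPC alone, 14 in ESC alone, 334 in neither, and 209 differed between arrays of a group. The background was 17.9% of the bins of the array in NPC alone and 2.3% in ESC alone. Without the chromosome 12 tile it was 5.3% and 2.83%. Tile K had 36 bins in NPC alone and 0 in ESC alone among 236. Tile D had 10 and 2 among 209, and tile F had 7 and 0 among 36. Tile H ran the other way, with 0 in NPC alone and 6 in ESC alone among 41.

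Tile H was bright at its start and fell along the rest. Over 10 kb at chromosome 5: 143660001-143670000 (116 probes) the level stood at 0.62 and 0.77 in ESC and 0.13 and 0.62 in NPC, and 90.5% to 92.2% of the probes were well above background. NPC 1 was low in this part, and NPC 2 at 0.62 was just below ESC 1. The 1 kb bin at 143666001 (15 probes) reached 3.70 and 4.07 in ESC and 3.16 and 3.57 in NPC. The window with the highest level, at 143665001, changed by -0.43 (SE 0.28, adjusted p = 0.227), and its groups overlap.

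Beyond the bright part, all 8 windows of tile H from 143670001 to 143710000 (227 probes) were called lower. The level there stood at -2.87 and -2.81 in ESC and -3.81 and -3.62 in NPC, 1.83-fold lower (change -0.88). Probes well above background made up 57.3% and 62.1% in ESC and 44.9% and 54.2% in NPC. The window at 143690001 had the largest fall of all windows in the regions, from -1.99 and -1.93 in ESC to -3.28 and -3.16 in NPC (change -1.26, SE 0.13, adjusted p = 0.00591). It was called lower under all 7 scalings, as were the windows at 143675001 (-0.91, SE 0.14) and 143680001 (-1.05, SE 0.13).

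Inside each array, the bright 10 kb exceeded the rest of the tile by 3.47 and 3.56 in ESC and by 3.91 and 4.21 in NPC. These differences do not overlap, and they are a description of parts chosen after their values were seen. The tile as a whole stood at -1.71 and -1.64 in ESC and -2.49 and -2.19 in NPC (change -0.67, SE 0.13, adjusted p = 0.0139), or -0.34 against the median window. It was called under 6 of the 7 scalings, the exception being the SRN control spots (-0.39, adjusted p = 0.0640).

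**Figure D4:**
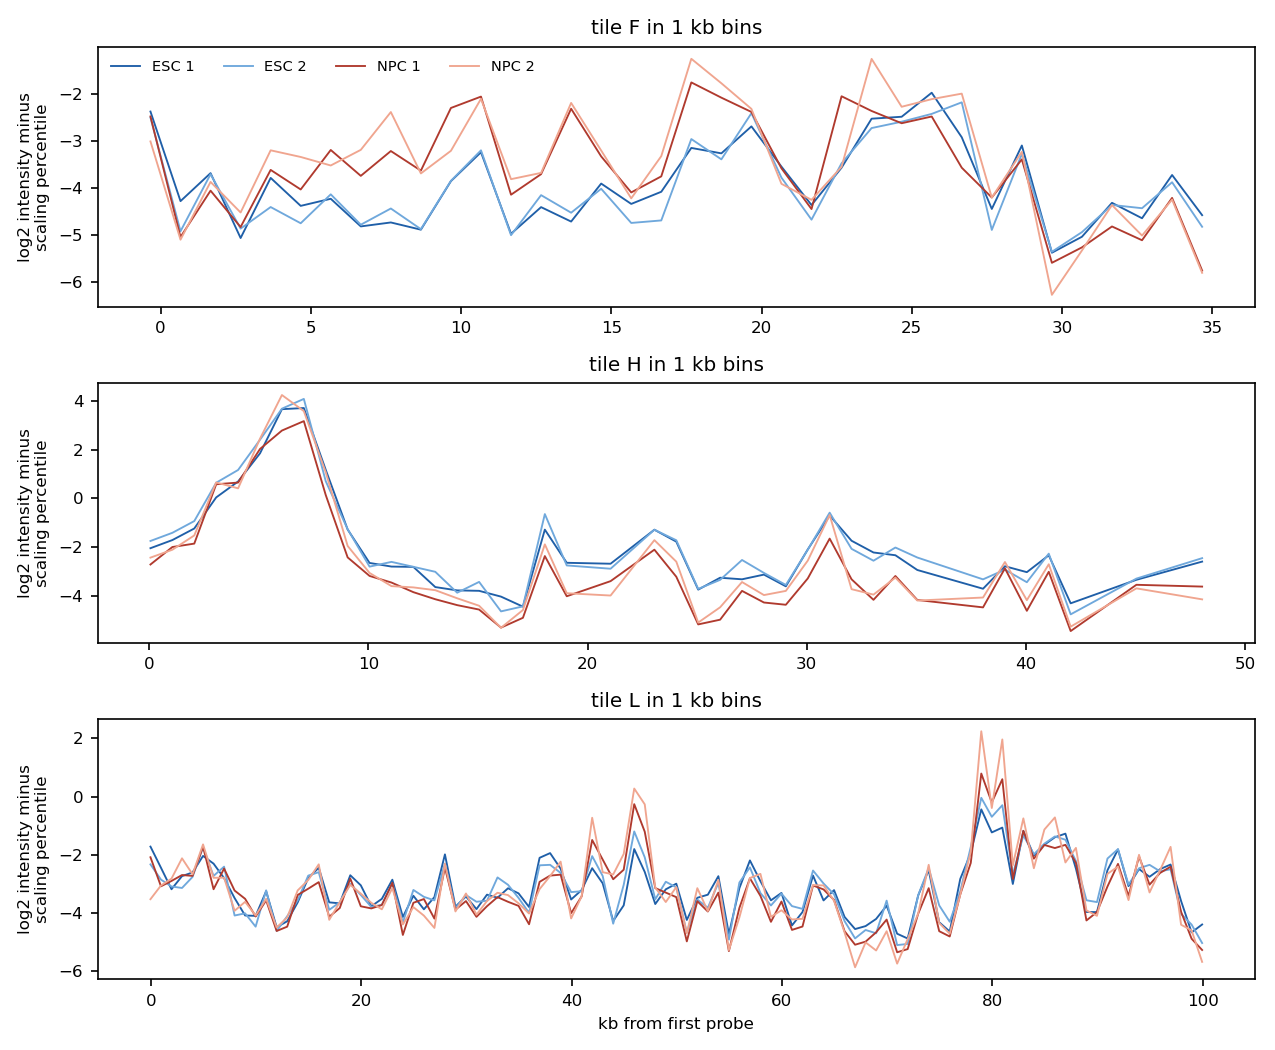
Tiles F, H and L in bins of 1 kb (mean log2 intensity minus the scaling percentile) against the distance in kb from the first probe of each tile, with 1 line per array. The NPC lines lie above the ESC lines over the rising stretch of tile F, below them in most bins after the bright peak of tile H, and above them at a pair of places in tile L.

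Tile M had the largest change of the 13 regions. Its level stood at -1.63 and -1.49 in ESC and -2.56 and -2.64 in NPC (change -1.05, SE 0.082, adjusted p = 0.00262), or 2.06-fold lower in NPC. Set against the median window the change was -0.71. Probes well above background numbered 83.8% and 91.2% in ESC and 67.6% and 82.4% in NPC, so the tile still carried signal in NPC. Its window at 87425001 (56 probes) changed by -1.03 (SE 0.13) under all 7 scalings. The brighter window at 87420001, of 12 probes, changed by -1.11 (SE 0.22, adjusted p = 0.0190) and was not called under every scaling. Without ESC 1 the change of the tile was -1.11 (adjusted p = 0.0557).

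Tiles A and E fell along nearly their whole length. Tile A stood at -3.32 and -3.22 in ESC and -3.87 and -3.88 in NPC (change -0.60, SE 0.069, adjusted p = 0.00565), with 9 of 10 windows called lower at changes from -0.71 to -0.54. None of these windows was called under all 7 scalings. The brightest, at 35935001, stood at -2.84 and -2.46 in ESC and -3.36 and -3.23 in NPC (change -0.64, SE 0.18). The share of probes well above background in tile A overlapped between the groups, at 47.1% and 53.6% in ESC and 43.4% and 49.7% in NPC.

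Tile E stood at -3.15 and -3.39 in ESC and -3.99 and -3.99 in NPC (change -0.72, SE 0.10, adjusted p = 0.00898), or 1.65-fold lower. Of its 7 windows, 6 were called lower. The 5 from 146995001 to 147020000 (272 probes) stood at -3.04 and -3.29 in ESC and -3.94 and -3.95 in NPC. The window at 147015001 changed by -0.82 (SE 0.13, adjusted p = 0.0122) under all 7 scalings, and the first window, at 146995001, by -1.11 (SE 0.23). The brightest, at 147010001, changed by -0.80 (SE 0.21). The last window, at 147025001, was called lower on 6 probes, none of them well above background in NPC. Set against the median window, the changes of tiles A and E were -0.27 and -0.39. Without ESC 1 neither tile was called (changes -0.65 and -0.60). Without ESC 2 tile A was again not called (-0.55), while tile E was called lower (-0.84).

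Tile J was the brightest of the 13 regions and carried signal over nearly all of its length. Its level stood at -0.73 and -0.65 in ESC and -0.91 and -1.15 in NPC, and 85.3% to 90.7% of its probes were well above background. The change of -0.34 (SE 0.11, adjusted p = 0.0565) did not pass the test and lay at the median window (difference -0.0017). The tile was called lower under 4 of the 7 scalings: when all probes set the percentile (-0.73, adjusted p = 0.00144), with the median over windows (-0.54, 0.00549), with normexp (-0.24, 0.00477) and with the authors' values (-0.44, 0.0133). Of its 1 kb bins, 48 of 50 carried signal in both groups. The brightest window of all in the regions, at 125110001, stood at 1.06 and 1.39 in ESC and 0.90 and 0.97 in NPC (change -0.29, SE 0.17, adjusted p = 0.193). Levels of different regions come from different probes, so their order is a description only.

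In tile G, 0 of 8 windows were called in either direction (limma, and likewise 0 at an unadjusted p under 0.05). Its level stood at -3.76 and -3.88 in ESC and -4.03 and -3.74 in NPC, and the groups overlap (change -0.066, SE 0.13, adjusted p = 0.664, and 0.27 against the median window). Its first probes were bright: the window at 102060001, of 13 probes all well above background on every array, stood at 0.81 and 0.61 in ESC and 0.62 and 0.39 in NPC. The window at 102085001 was high in NPC 2 alone, at -2.47, against -3.48 in NPC 1 and -3.69 and -3.49 in ESC.

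The 3 edges changed little relative to the array. Edge B stood at -3.36 and -3.42 in ESC and -3.60 and -3.63 in NPC (change -0.23, SE 0.064, adjusted p = 0.0393) but 0.10 when set against the median window. In either direction 0 of its 10 windows were called (limma; 0 higher and 2 lower at an unadjusted p under 0.05). It was called lower under 3 of the 7 scalings, and its change was 0.052 with SRN spots as the scale. Edge C stood at -3.66 and -3.57 in ESC and -3.81 and -4.20 in NPC (change -0.39, SE 0.16, adjusted p = 0.0988, and -0.053 against the median window), with 2 of 5 windows called lower, neither under all 7 scalings. As a whole it was called lower under 4 of the 7 scalings: when all probes set the percentile (adjusted p = 0.00147), with the median over windows (0.0106), with normexp (0.0327) and with the authors' values (0.0166). Edge I stood at -3.92 and -3.95 in ESC and -4.41 and -4.29 in NPC (change -0.41, SE 0.075, adjusted p = 0.0139, and -0.077 against the median window), with 2 of 5 windows called lower. It was called lower under 4 of the 7 scalings. The brightest windows of edges B, C and I, at 74395001, 74715001 and 122590001, changed by -0.23, -0.28 and -0.061, and none of these passed the test.

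**Figure D5:**
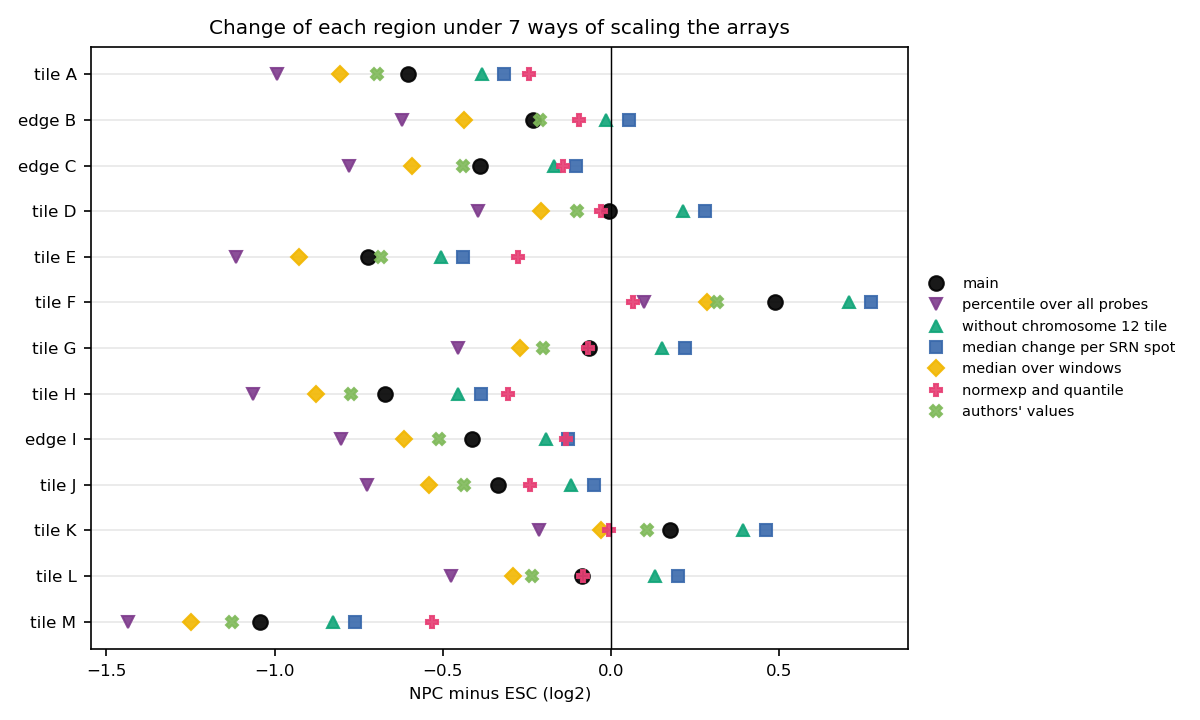
NPC minus ESC (log2) of each of the 13 regions under 7 ways of scaling the arrays, with 1 symbol per scaling. Tiles A, E, H, J and M and edges C and I stay below 0 and tile F above 0 under each of the 7, while edge B and tiles D, G, K and L have symbols on both sides of 0.

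The pattern along the regions was much alike in both groups. Over the 194 windows, the Spearman correlation of levels was 0.978 between the ESC arrays, 0.934 between the NPC arrays and 0.827 to 0.888 between arrays of different groups. These correlations are across windows of the same probes, which share their base composition and are not independent replicates.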

How the data were processed

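Each of 4 samples (2 ESC, 2 NPC, grouped by their titles) was hybridised to 1 array in 1 colour, all on 1 slide with 1 scan. The deposited scanner files give spot intensity from Agilent Feature Extraction 11.5.1.1, per the file headers, and yes or no marks. The series table holds values of the authors that look like log2; their normalization is not given in the sources used here, and the table served only as an alternative.

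Control spots (3188) and outlier spots were left out. The percentile was taken over probes well above background on all arrays because 48.9% of the marks over all arrays were set, under the limit of 50%. Means over probes per region (42), per 5 kb window with at least 5 probes (964) and single probes (47900) were tested with limma 3.58.1 (lmFit, eBayes) in R 4.3.3, with group as the single term, and adjusted by Benjamini-Hochberg over each whole table. A call is an adjusted p under 0.05. With 2 arrays against 2, an exact test could at best reach p = 0.333, and precision is limited by the number of arrays.

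The 7 scalings include the main one, the median over windows, the percentile over all probes and the main percentile with the chromosome 12 tile left out. The rest are the median change per SRN control spot, normexp (offset 50) with quantile normalization, and the authors' values. The median over windows subtracts the median window level of each array, and the median change of all windows was then -0.54. It is not the change relative to the median window, from which the median change itself was subtracted. The files hold no mean signal, so normexp ran on the median signal. Regions and tests were chosen with earlier results of these data known. Every region was named, with the 10 called windows of largest change in each direction and the brightest window of each region; the other windows and the 1 kb bins were chosen after their values were seen. A gene would have been named only where a file or a table of the same build paired it with probes. The fit was also run on simulated windows with independent noise of the same spread in every window and changes larger than any in the regions. That run cannot vouch for calls on smaller changes. Python 3.11.15 and matplotlib 3.10.9 drew the figures.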

Additional observations from a re-analysis of the deposited data

Results flagged for a closer look

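The control spots named SRN gave signal, and the main comparisons of the regions do not use them. Of 677 such spots, 56.4% ± 1.23 passed the background limit (mean and SD of 4 arrays, lowest 54.9%, highest 57.9%), against 1.93% ± 0.501 of 660 negative control spots. The files do not say what the SRN spots hold. The change of each region scaled on them is part of the 7 scalings.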

How the results depend on the processing

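The number of calls rested on the scaling and on single arrays, and the cause was not tested. Higher and lower regions numbered 0 and 10 when all probes set the percentile, 2 and 4 if the chromosome 12 tile was dropped from it, 2 and 3 on the SRN scale, 0 and 8 on the scale of the median window, 0 and 6 with normexp, 0 and 7 with the authors' values, 2 and 5 with dim probes left out and 2 and 6 with the median over probes. At an unadjusted p under 0.05 the counts of 0 higher stayed at 0 in those limma fits. In the same order, higher and lower windows numbered 8 and 115, 20 and 7, 32 and 8, 11 and 84, 6 and 54, 12 and 56, 30 and 30, and 28 and 18. Windows of 2 kb gave 34 and 42 of 454. Higher probes numbered 113 with all probes, 355 without the chromosome 12 tile, 386 with SRN spots, 59 with normexp, 48 with the authors' values and 140 with the trend prior. Leaving out 1 array gave 0 to 2 higher and 0 to 8 lower regions, 0 to 25 and 0 to 71 windows, and 84 to 600 and 110 to 552 probes; the lone array is then assumed to vary like the other group. The ESC and NPC arrays share replicate numbers. The deviations of same-numbered arrays correlated at -0.028, but with only 2 pairs this cannot show whether the numbers pair the samples. The main fit did not pair them. With the replicate block, edge B lost its call (adjusted p = 0.203), while edge C (0.0311) and the window at 149835001 of tile L (0.0175) gained one; 1 region was higher and 6 lower, 13 windows were higher and 26 lower, and 103 probes were higher and 58 lower.

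Signs turned as follows. Without the chromosome 12 tile and with SRN spots, tile D was at 0.21 and 0.28, tile G at 0.15 and 0.22, tile L at 0.13 and 0.20, the window at 102060001 of tile G at 0.015 and 0.082 and the window at 122590001 of edge I at 0.16 and 0.22. With SRN spots, edge B was at 0.052, its window at 74395001 at 0.055 and the window at 74715001 of edge C at 0.0053. With the median over probes, tile D was at 0.17, tile G at 0.24 and the window at 122590001 at 0.25. With dim probes left out, tile D was at 0.24 and the window at 147870001 of tile F at -0.0019. Tile K was at -0.22 with all probes, -0.029 with the median over windows and -0.0076 with normexp. Its window at 123175001 was at -0.098 with all probes, -0.050 with normexp and -0.080 with the authors' values, and the window at 147870001 was at -0.38, -0.11 and -0.20 in the same order and at -0.19 with the median over windows. Leaving out 1 array gave -0.13 to 0.12 for tile D, -0.21 to 0.079 for tile G, -0.67 to 0.11 for the window at 74715001, -0.22 to 0.24 for the window at 147870001 and -0.29 to 0.17 for the window at 122590001. Normexp with its offset compresses log2 changes. Where few probes of a region were well above background, the size of its change is poorly measured.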
